A study of Mus musculus with 8 samples.

Results

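The IgLON, neurexin, neuroligin and Adgrb3 adhesion genes examined here are Lsamp, Ntm, Negr1, Opcml, Nrxn2, Nrxn3, Nlgn1, Nlgn3 and Adgrb3. They were chosen by gene symbol, and each matched 1 of the 32285 genes counted, giving 9 genes in all. Their levels were followed in astrocyte, oligodendrocyte, oligodendrocyte progenitor and neuron nuclei and in both Tsc2 genotypes. The data are single nuclei RNA sequencing of the mouse ventricular-subventricular zone (V-SVZ), the neurogenic wall of the lateral ventricle, at postnatal day 90. There were 4 Tsc2 wt/wt mice and 4 Tsc2 mut/mut mice, with 1 library per mouse. The study used both sexes, and the sex of each of these mice is not given in the sources used here. Tsc2 encodes tuberin, which restrains the mTOR pathway, and the mut/mut mice carried conditional alleles that CRE recombinase inactivates. Mice of both genotypes carried a Rosa26 CAG-tdTomato reporter that CRE switches on, and 100000 tdTomato-positive nuclei were sorted per mouse. The study used electroporated CAG-CRE or tamoxifen-induced Nestin-CRE-ERT2 in neonates to deliver CRE, and which route these mice had is not given in the sources used here. The sort is for cells that met CRE and their descendants, but the sorted nuclei also held 605 microglia and 502 choroid plexus nuclei by their markers, and they are not a sample of the whole V-SVZ.

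IgLON proteins (Lsamp, Ntm, Negr1 and Opcml) are small immunoglobulin-domain proteins held to the outer membrane by a GPI anchor, and they bind themselves and each other. Neurexins (Nrxn2 and Nrxn3) are mostly presynaptic receptors that bind neuroligins (Nlgn1 and Nlgn3) on the facing membrane, and Adgrb3 is an adhesion G protein-coupled receptor bound by secreted C1q-like proteins. These genes are best known from neurons, but astrocytes and cells of the oligodendrocyte lineage also carry many of them, where they take part in contacts with neurons and with other glia.

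The libraries held 11182335 to 36773832 UMIs (unique molecular identifiers, each marking 1 captured RNA molecule). Of 37881 barcodes with at least 300 genes, 3920 had under 25% mitochondrial UMIs and are called nucleus-like, 222 to 1069 per mouse. Nuclei were assigned to classes by marker genes that exclude the 9 genes, which gave 774 astrocyte, 631 oligodendrocyte, 66 oligodendrocyte progenitor and 175 neuron nuclei. Astrocyte markers included Gja1, which the study names among markers of its neural stem cell clusters. Neuron markers included Dcx, which the study uses for newborn neuroblasts. The astrocyte class may thus hold stem cells and the neuron class neuroblasts, which were not separated. Of the astrocyte nuclei, 64 had a marker excess between the 4-fold threshold and 5-fold, and another 228 nuclei led by astrocyte markers were left out because a second class came too close. Markers outside the assignment followed the class names for astrocytes, oligodendrocytes and neurons, and none is given here for progenitors. Slc1a2, the main astrocyte glutamate transporter, averaged 7990 CPM (a gene's UMIs scaled to a common total for each sum) in astrocyte nuclei and at most 1620 in the other 3 classes. Mobp, a myelin gene, averaged 1284 CPM in oligodendrocyte nuclei and at most 61.7 elsewhere, and Snap25, a synaptic vesicle fusion gene, averaged 660 CPM in neuron nuclei and at most 134.6 elsewhere. Levels were UMIs summed per mouse and class, used where a mouse had at least 10 nuclei. That left 7 mice for astrocytes, 8 for oligodendrocytes, 6 for neurons and only mut/mut 1 and mut/mut 3 for progenitors. The library of mut/mut 4 stood apart, with 78.6% of its 224 nucleus-like barcodes in the choroid plexus class, 5 astrocyte nuclei and 0 neuron nuclei. The barcodes shared by any pair of libraries numbered 917 to 1058 of all barcodes. Among nucleus-like barcodes 2 were shared, each between mut/mut 4 and another mouse, and 0 among the nuclei of the 4 classes followed here. Tsc2 itself was at 12.9 to 17.4 CPM in nucleus-like barcodes of wt/wt mice and at 9.07 to 19.9 CPM in those of mut/mut mice, ranges that overlapped. Where these UMIs lie relative to the deleted part of the gene is not given in the counts, so they do not check the genotype labels.

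Lsamp, which guides limbic and other axons, was highest in astrocyte nuclei. Its level there ran from 19405 to 27832 CPM with a median of 22306 over 7 mice. The mean was 23053 ± 3051 CPM (SD, n = 7). The gene lies at chr16:39984361-42181679 on the plus strand (GRCm38, GENCODE M21, as for the positions that follow). Both progenitor sums were lower, at 16837 CPM in mut/mut 1 and 15992 CPM in mut/mut 3. These sums also held 7697 and 6491 CPM of the astrocyte markers, against 33398 and 30507 CPM in astrocyte nuclei of the same mice. Their neuron markers summed to 3100 and 3214 CPM. The part of astrocyte or neuron RNA in the progenitor levels of these genes was not tested. Neuron nuclei held 2717 to 9791 CPM, with a median of 5379, and oligodendrocyte nuclei 623 to 2062 CPM, with a median of 837. The ranges of these 4 classes did not overlap, but the difference between astrocytes and progenitors did not pass the test between classes given below. In neurons 1 nucleus held 53.2%, 56.1% and 63.4% of the Lsamp UMIs in wt/wt 2 to 4 and 65.6% in mut/mut 2. Without this nucleus, wt/wt 4 falls from 3738 to 1881 CPM, inside the oligodendrocyte range. With the top nucleus of each oligodendrocyte sum also left out, the highest oligodendrocyte level is 1553.5 CPM, in wt/wt 2. Choroid plexus nuclei, which served as a class without the genes, averaged 16.9 CPM. Microglia nuclei held 40.9 to 2028 CPM with a mean of 1019, which overlapped the oligodendrocyte range. The part of astrocyte RNA in the oligodendrocyte level of Lsamp was not tested.

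Ntm, or neurotrimin, an IgLON known for its effect on neurite outgrowth, followed the same order. Its difference between astrocytes and progenitors did not pass that test either. Astrocyte nuclei held 7996 to 10708 CPM, with a median of 8674. Progenitors held 3394 CPM in mut/mut 1 and 3151 CPM in mut/mut 3, and neurons 659 to 2464 CPM with a median of 1369. Among neurons, 1 nucleus held 95.2% of the Ntm UMIs of wt/wt 4 and another 91.6% of those of mut/mut 2. Oligodendrocyte nuclei had the lowest mean of the 4 classes and overlapped neurons only in their highest value, at 0, 551, 30.3 and 45.2 CPM in wt/wt 1 to 4 and 474, 282, 680 and 44.5 CPM in mut/mut 1 to 4. Their mean of 263 CPM was below the 302 CPM of barcodes with 100 to 200 genes, which were taken to hold mostly free RNA. It was not read as expression, but choroid plexus nuclei averaged only 17.7 CPM. How much of the oligodendrocyte level is background was not tested. In wt/wt 2 the 211 Ntm UMIs came from 19 of 131 oligodendrocyte nuclei. The sum of 21 astrocyte markers in the same oligodendrocyte nuclei was 2686, 4002, 2269 and 2410 CPM in wt/wt 1 to 4. In mut/mut 1 to 4 it was 3649, 2506, 4171 and 2182 CPM. This sum and Ntm were both highest in mut/mut 3, but wt/wt 1 held more of the markers than mut/mut 2 and less Ntm. The part of astrocyte RNA in the oligodendrocyte level of Ntm was not tested.

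Opcml, a close relative of Ntm first described as an opioid-binding protein, kept the order of progenitors, neurons and oligodendrocytes but was lowest of the 4 in astrocytes, where Ntm was highest. Its progenitor levels were 7563 CPM in mut/mut 1 and 6507 CPM in mut/mut 3. Neuron nuclei held 414 to 3241 CPM, with a median of 2235, and overlapped the oligodendrocyte range. The lowest, in wt/wt 4, falls to 87.5 CPM without 1 nucleus that held 84.6% of its Opcml UMIs. Oligodendrocyte nuclei held 366, 553, 650 and 628 CPM in wt/wt 1 to 4 and 425, 327, 401 and 401 CPM in mut/mut 1 to 4, so each of the 8 mice was well above the 30.9 CPM of the barcodes with mostly free RNA. In 774 astrocyte nuclei it had 15 UMIs in all, a mean of 4.52 ± 2.54 CPM (SD, n = 7), which lay below that free RNA level and beside the 3.02 CPM of choroid plexus nuclei.

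Ntm and Opcml are direct neighbours on chromosome 9. Opcml lies at chr9:27790775-28925410 on the plus strand and Ntm at chr9:28994750-29963141 on the minus strand, so that they end towards each other across 69.3 kb with 0 annotated genes between them. Their class means on the log2 scale had a Pearson r of 0.16 over the 7 classes present in at least 4 mice (astrocyte, oligodendrocyte, neuron, ependymal, microglia, endothelial and choroid plexus, without progenitors), against 0.93 for Lsamp and Ntm, which are on different chromosomes. The 3 promoters below, from RefSeq on GRCm38.p6, cover 250 bases before to 50 bases after an annotated start and are shown because these genes divide the glial classes. Capitals mark CpG dinucleotides. The Lsamp window is chr16:39984114-39984413 on the plus strand, the Ntm window chr9:29412636-29412935 on the minus strand, and the Opcml window chr9:27791049-27791348 on the plus strand.
Lsamp: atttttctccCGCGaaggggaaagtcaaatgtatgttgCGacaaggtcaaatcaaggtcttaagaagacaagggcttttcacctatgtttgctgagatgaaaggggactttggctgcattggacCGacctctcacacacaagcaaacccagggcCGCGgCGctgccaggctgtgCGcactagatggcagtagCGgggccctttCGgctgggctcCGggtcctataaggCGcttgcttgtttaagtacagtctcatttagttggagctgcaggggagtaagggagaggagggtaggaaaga
Ntm: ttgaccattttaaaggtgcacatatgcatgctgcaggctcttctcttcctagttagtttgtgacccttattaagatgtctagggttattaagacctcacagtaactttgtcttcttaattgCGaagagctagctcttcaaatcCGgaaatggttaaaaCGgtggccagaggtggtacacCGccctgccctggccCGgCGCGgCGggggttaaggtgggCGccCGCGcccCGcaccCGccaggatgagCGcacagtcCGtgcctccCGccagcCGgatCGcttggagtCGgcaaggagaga
Opcml: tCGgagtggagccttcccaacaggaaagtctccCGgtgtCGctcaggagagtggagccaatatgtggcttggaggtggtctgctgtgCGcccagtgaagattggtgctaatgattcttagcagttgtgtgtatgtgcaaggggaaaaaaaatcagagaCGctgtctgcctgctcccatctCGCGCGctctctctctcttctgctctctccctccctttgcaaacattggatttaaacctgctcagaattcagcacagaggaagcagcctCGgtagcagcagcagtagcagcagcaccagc
Ntm has a second window with 2 CpG dinucleotides and Lsamp a second with 3, and the one with more was printed for each. Both Ntm windows lie inside the gene, whose GENCODE span begins at chr9:29963141 on the minus strand. The Opcml window also lies inside its gene, whose span begins at chr9:27790775 on the plus strand. Which start these nuclei used was not tested. The Ntm window shown holds 19 CpG dinucleotides, a number reached by 28.1% of 32851 RefSeq mouse promoters, though it was picked for its CpG number. The Lsamp window holds 12 and the Opcml window 9, against a median of 7. Of the 9 genes, 7 had at least 1 window. A set of 4 short motifs was searched on both strands. The E-box CAGCTG occurs in 16.3% of all promoters. The NFI half-site TTGGCA, which reads TGCCAA on the opposite strand, occurs in 14.1%. The SOX word ACAATG, which reads CATTGT on the opposite strand, occurs in 12.6%. The full cAMP response element TGACGTCA occurs in 1.79%. None is in the windows printed above. The only matches were the NFI word on each strand of the Negr1 window and on 1 strand of the first of 3 Nrxn3 windows.

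Negr1, an IgLON expressed by growing neurons, lies at chr3:156561794-157316445 on the plus strand and had near-equal levels in neurons and astrocytes. Neuron nuclei held 1223 to 2718 CPM with a median of 1977, astrocyte nuclei 1546 to 2173 CPM with a median of 1868, and the progenitor sums were 1283 CPM in mut/mut 1 and 1780 CPM in mut/mut 3. These 3 ranges overlapped. Oligodendrocyte nuclei, at 44.5 to 431 CPM with a median of 279, lay below all of them.

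Of the neurexins, Nrxn3 (chr12:88722876-90334935, plus strand) was the one highest in neurons. Neuron nuclei held 6675 to 26333 CPM, with a median of 16265, and the progenitor sums were 3715 CPM in mut/mut 1 and 3246 CPM in mut/mut 3. Astrocyte nuclei held 267 to 878 CPM, with a median of 508. Ependymal nuclei, the ciliated lining of the ventricle, held more than astrocytes, at 1597 to 2837 CPM with a median of 1885. Oligodendrocyte nuclei held 1843, 131, 15.1 and 8.21 CPM in wt/wt 1 to 4 and 308, 8.83, 176 and 0 CPM in mut/mut 1 to 4. All 151 Nrxn3 UMIs in the oligodendrocyte nuclei of wt/wt 1 came from 1 nucleus, without which this mouse was at 0 CPM. Another single nucleus gave 67 of the 89 UMIs in mut/mut 1, which falls from 308 to 78.1 CPM without it. The oligodendrocyte median was 72.8 CPM, and the mean without wt/wt 1 was 92.3 CPM. Both lay below the 103 CPM of barcodes with mostly free RNA, so this level was not read as expression. Choroid plexus nuclei averaged only 6.92 CPM, and the background part of the oligodendrocyte level was not tested.

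Nrxn2 (chr19:6418731-6544169, plus strand) was highest in progenitors. Its levels there were 428 and 583 CPM, its median was 176 CPM in neurons (91.0 to 312), 196 CPM in astrocytes (138 to 218) and 93.6 CPM in oligodendrocytes (75.6 to 178), and barcodes with mostly free RNA were at 87.0 CPM. On this scale the oligodendrocyte level of Nrxn2 was close to that of free RNA. CPM totals include mitochondrial UMIs, which made up 48.0% to 49.8% of UMIs in the barcodes with mostly free RNA. They made up 6.43% to 12.8% in oligodendrocyte, 3.13% to 6.99% in astrocyte and 4.49% to 7.51% in neuron sums. Free RNA levels given here are thus understated beside the classes. The astrocyte and neuron levels of Nrxn2 also lay nearer to free RNA than these CPM show.

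The neuroligins, which receive neurexins across the synapse, had their highest means in progenitors, for Nlgn3 on only 3 UMIs in each progenitor sum. Nlgn1, the form of excitatory synapses (chr3:25426215-26332460, minus strand), was at 5168 and 6174 CPM in the progenitor sums. Astrocyte nuclei held 2607 to 3432 CPM, with a median of 3011. Neuron nuclei held 1335 to 4830 CPM with a median of 1743, which overlapped astrocytes. The highest of these, 4830 CPM in wt/wt 3, falls to 1116 CPM without 1 nucleus. Oligodendrocyte nuclei held 401 to 1125 CPM with a median of 825. Nlgn3 (chrX:101299168-101325963, plus strand) was at 47.3 and 80.2 CPM in the progenitor sums, with medians of 47.6 CPM in astrocytes, 25.8 CPM in neurons and 11.7 CPM in oligodendrocytes, the last below its free RNA level of 15.9 CPM. The 3 progenitor UMIs of mut/mut 3 came from 1 nucleus, and the progenitor and astrocyte ranges overlapped.

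Adgrb3, the receptor of C1q-like ligands (chr1:25067476-25829707, minus strand), varied little between astrocyte sums, from 3460 to 3827 CPM with a median of 3623. Neuron nuclei held 1845 to 4020 CPM with a median of 2587, and the progenitor sums were 1985 and 3047 CPM. Ependymal nuclei held 944 to 1457 CPM, and oligodendrocyte nuclei 269 to 583 CPM, with no overlap between them.

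**Figure D1:**
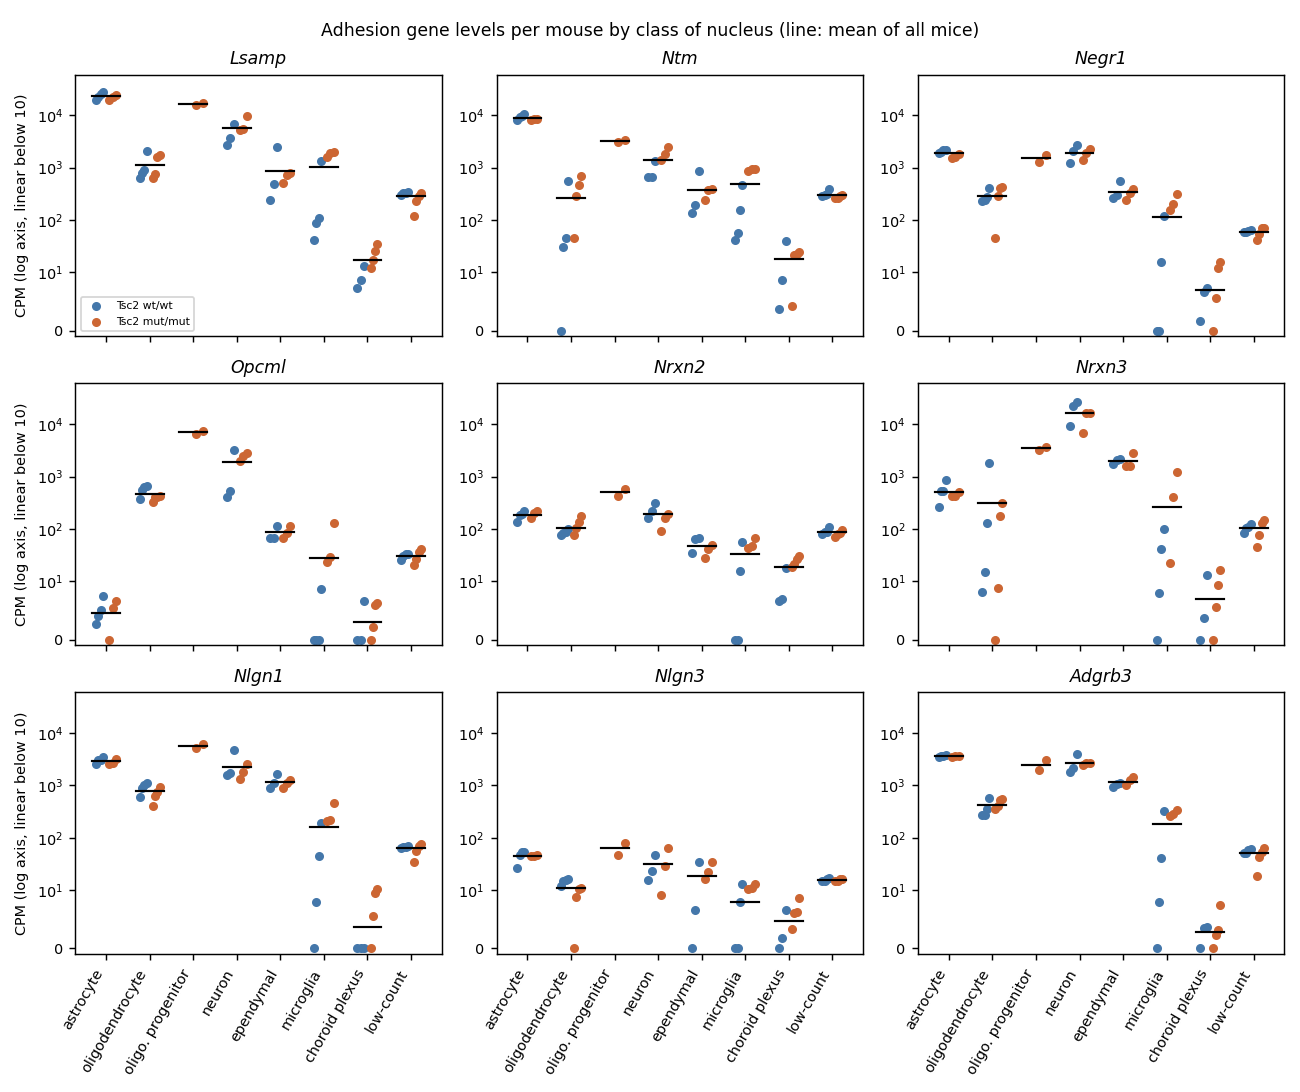
Level of each gene in CPM (vertical axis, linear below 10 and logarithmic above) by class of nuclei, with 1 point per mouse and a line at the mean of all mice. Lsamp and Ntm have their highest means in astrocyte nuclei, though neither passed the test against progenitors. Opcml is near 0 in astrocyte nuclei with a mean of 4.52 CPM, and Nrxn3 is highest in neuron nuclei.

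Levels of different genes were also set against each other per 100 kb of gene, as a description. UMIs of 3′ libraries need not scale with gene length, and whether intronic reads were counted is not given. Nlgn3, at a mean of 45.4 CPM in astrocytes, passes Nrxn3, at 511 CPM, only on the per 100 kb scale. On that scale astrocyte nuclei held 1049 CPM per 100 kb of Lsamp, 929 of Ntm, 477 of Adgrb3, 325 of Nlgn1, 249 of Negr1, 169 of Nlgn3, 150 of Nrxn2, 31.7 of Nrxn3 and 0.398 of Opcml. Neuron nuclei held 1003 CPM per 100 kb of Nrxn3, and progenitors 747 of Lsamp, 626 of Nlgn1 and 620 of Opcml.

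The share of nuclei with at least 1 UMI was compared after each nucleus was thinned to 1000 UMIs, which left 732 astrocyte, 590 oligodendrocyte, 58 progenitor, 162 neuron and 492 choroid plexus nuclei. Lsamp was found in 99.3% of astrocyte nuclei and Ntm in 99.5%, with unthinned shares of 97.9% and 97.4%. In oligodendrocyte nuclei the thinned shares were 35.4% and 8.14%, and in choroid plexus nuclei, a class that should lack both, they were 2.85% and 2.03%. The 484 microglia nuclei left after thinning had 13.4% for Lsamp and 11.4% for Ntm, the latter above the oligodendrocyte share. Opcml was found in 96.6% of progenitor, 28.1% of oligodendrocyte and 27.8% of neuron nuclei. Its thinned share of 0.546% in astrocytes lay at the 0.610% of choroid plexus nuclei and was read as background. Its unthinned shares were 98.5% in progenitors, 45.2% in oligodendrocytes, 30.9% in neurons, 1.81% in astrocytes and 1.79% in choroid plexus. Nrxn3 was found in 89.5% of neuron, 91.4% of progenitor, 26.1% of astrocyte and 3.73% of oligodendrocyte nuclei after thinning, and in 91.4%, 92.4%, 43.3% and 7.92% before it. Median UMIs per nucleus were 3663 in astrocytes, 2248 in oligodendrocytes, 2717.5 in progenitors, 2326 in neurons and 5178 in choroid plexus.

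The first question was how the glial classes differ. Between astrocyte and oligodendrocyte nuclei, all 9 genes passed the edgeR quasi-likelihood test at an adjusted p of 0.05, 8 of them higher in astrocytes, where 53.6% of the 5929 genes tested passed in either direction, 26% being higher and 27.5% lower. Differences are log2 fold changes within mice. Ntm differed by 5.24 (SE 0.58) and Lsamp by 4.31 (SE 0.34), which are 37.7-fold and 19.8-fold higher levels in astrocytes. The oligodendrocyte levels of Ntm and Nrxn3 were not read as expression. That of Nlgn3 lay below its free RNA level and that of Nrxn2 close to it. Choroid plexus nuclei held less of each of these genes on average than oligodendrocyte nuclei. How far background RNA affects the sizes of the differences of these genes from oligodendrocytes, here and later, was not tested. The oligodendrocyte level of Lsamp overlapped that of microglia, and the background part of its difference was not tested. Adgrb3 differed by 3.03 (SE 0.28) and Negr1 by 2.49 (SE 0.27). Nlgn1 at 1.74, Nlgn3 at 1.73 and Nrxn2 at 0.87 were also higher in astrocytes, in 7 of 7 mice. Opcml alone was lower, by −6.62 (SE 0.50, adjusted p = 6.81e-13), again in 7 of 7 mice. Its astrocyte level was read as background, so the sizes of this and the later Opcml differences from astrocytes depend on that background. Nrxn3 was higher in astrocytes by 1.75 (SE 0.53, adjusted p = 0.00766) in 6 of 7 mice, and the exception was wt/wt 1, whose oligodendrocyte value rests on 1 nucleus. The median difference of the 9 genes was 1.75, against −0.06 for all genes tested.

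Between astrocyte and neuron nuclei, 4 of 9 genes passed, where 45.3% of all genes did, 21.3% higher and 24% lower. Lsamp was higher in astrocytes by 2.19 (SE 0.34, adjusted p = 2.04e-06) and Ntm by 3.05 (SE 0.56, adjusted p = 6.09e-05), each in 6 of 6 mice. Nrxn3 was lower in astrocytes by −5.24 (SE 0.55, adjusted p = 1.53e-08) and Opcml by −8.28 (SE 0.52, adjusted p = 1.41e-14), each in 6 of 6 mice. The Negr1 difference was 0.07 with a 95% interval from −0.47 to 0.61, and that of Nrxn2 0.08 with an interval from −0.40 to 0.55. Adgrb3 at 0.54 (interval −0.03 to 1.11), Nlgn1 at 0.49 (interval −0.11 to 1.09) and Nlgn3 at 0.82 (adjusted p = 0.0656) did not pass either. The share of the 9 genes that passed was thus no higher than the background. The median difference was 0.49, against −0.05 for all genes.

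**Figure D2:**
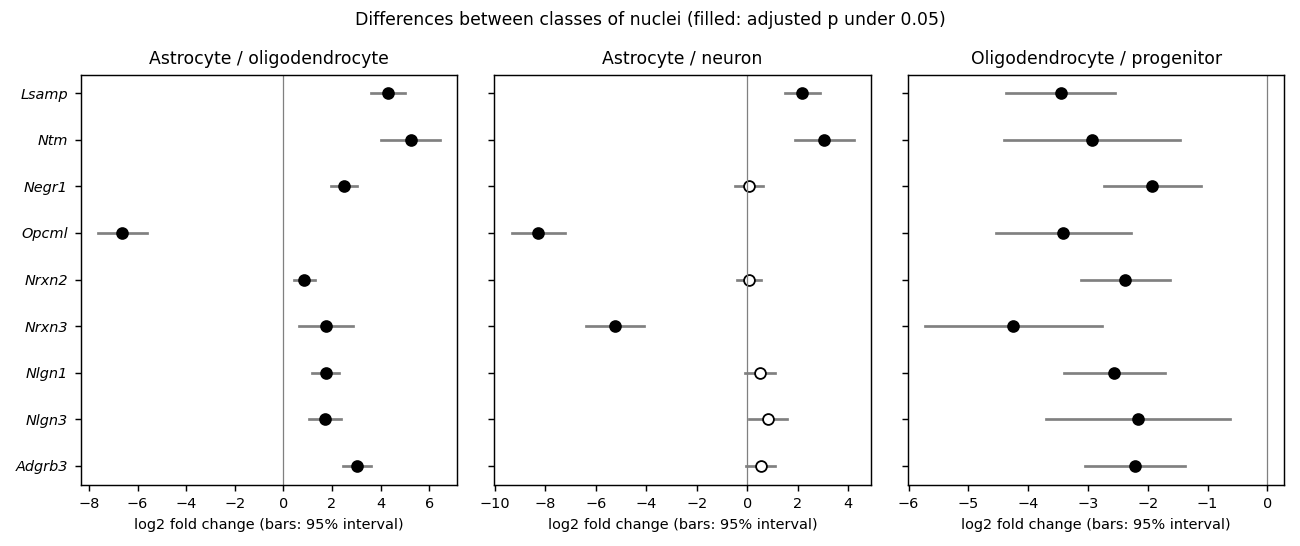
Log2 fold change (horizontal axis) of each gene in 3 comparisons of classes within mice, with bars for the 95% interval and filled points where the adjusted p is under 0.05. All 9 genes are filled against oligodendrocytes, with Opcml alone on the negative side, and 4 are filled against neurons.

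Within the oligodendrocyte lineage, all 9 genes were lower in oligodendrocyte than in progenitor nuclei, where 21.1% of all genes passed, 9.92% higher and 11.2% lower. The differences were −4.25 (SE 0.71) for Nrxn3, −3.46 (SE 0.45) for Lsamp, −3.41 (SE 0.56) for Opcml and −2.94 (SE 0.71) for Ntm. How far background RNA in oligodendrocytes affects the sizes for Nrxn3 and Ntm was not tested, as above. The other 5 lay between −2.56 for Nlgn1 and −1.92 for Negr1, with a median of −2.56 over the 9 genes and 0.19 over all genes. The Nlgn3 difference of −2.16 (SE 0.75) rests on 3 UMIs in each progenitor sum. Both mice that had progenitors were mut/mut, so this fit measured the difference in no wt/wt mouse. With a minimum of 5 nuclei, which brings in wt/wt 2, wt/wt 4 and mut/mut 2, all 8 genes tested were lower, where 45.1% of all genes passed. Without mut/mut 3 the number of genes that passed was 5. Scaling by DESeq2 size factors moved the median of all genes in this comparison from 0.19 to −0.12, and all 9 genes also passed in the DESeq2 fit.

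Between astrocyte and progenitor nuclei, 3 of the 9 genes passed, all lower in astrocytes, where 17.6% of all genes passed, 8.03% higher and 9.56% lower. Opcml differed by −10.03 (SE 0.63, adjusted p = 2.39e-13), Nrxn3 by −2.50 (SE 0.74, adjusted p = 0.0186) and Nrxn2 by −1.51 (SE 0.35, adjusted p = 0.00222). Lsamp at 0.85 (interval −0.18 to 1.89) and Ntm at 2.30 (interval 0.47 to 4.13, adjusted p = 0.0758) did not pass. Without mut/mut 3 only 1 gene passed, and with a minimum of 5 nuclei per mouse, which brings in the same 3 mice, 7 of 8 genes tested passed, where 40.02% of all genes did.

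Against neurons, oligodendrocyte nuclei were lower in 8 of 9 genes, where 48.6% of all genes passed and 25.7% were lower. Of these genes, Opcml was lower in 4 of 6 mice and higher in 2. The differences ran from −6.98 (SE 0.63) for Nrxn3 to −0.79 (SE 0.26) for Nrxn2, and Nlgn3 at −0.90 (adjusted p = 0.113) did not pass. Here too, the part of background RNA in the size for Nrxn3 was not tested. Progenitor nuclei were higher than neurons in Opcml (1.76, SE 0.52, adjusted p = 0.0259), Nlgn1 (1.31, SE 0.43, adjusted p = 0.0472) and Nrxn2 (1.58, SE 0.37, adjusted p = 0.00432), and lower in Nrxn3 (−2.74, SE 0.86, adjusted p = 0.0449), where 9.73% of all genes passed, 4.79% higher and 4.94% lower. These 4 calls rest on both progenitor libraries, since 1 gene passed without mut/mut 1 and 0 without mut/mut 3.

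The wider adhesion machinery was followed in 82 genes. Some bind or anchor these proteins, and others belong to further adhesion families, such as contactins, teneurins and Cadm proteins. Of the 82 genes, 56 were tested between classes. In astrocyte against oligodendrocyte nuclei 23 were higher and 14 lower, with a median of 0.47, beside 26% higher and 27.5% lower among all 5929 genes tested. Latrophilins, teneurins and Flrt proteins, which form trans-synaptic complexes, had 7 higher and 1 lower of 9 tested. Among them Tenm3 differed by 4.02 (SE 0.42) and Flrt2 by 3.60 (SE 0.46), while Tenm2 was lower by −5.98 (SE 0.46). Of the other GPI-anchored immunoglobulin proteins, 2 were higher and 3 lower of 6 tested. Cntn1 was higher by 3.42 (SE 0.30) and Cntn2, a contactin of myelinated axons and oligodendrocytes, lower by −8.19 (SE 0.37). Elmo1, which acts downstream of Adgrb receptors, was lower by −7.49 (SE 0.36).

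Against neurons, 10 of the 56 were higher in astrocytes and 31 lower, with a median of −1.32, beside 21.3% and 24% among all genes. Nxph1, a secreted neurexin ligand, differed by −8.87 (SE 0.46), Clstn2 by −7.38 (SE 0.32) and Lrrtm4 by −7.33 (SE 0.50), the last 2 being postsynaptic neurexin ligands. Mdga2, which binds neuroligins and blocks their contact with neurexins, was higher in astrocytes by 1.13 (SE 0.30). In oligodendrocyte against progenitor nuclei 5 were higher and 23 lower, beside 9.92% and 11.2% among all genes, and in oligodendrocyte against neuron nuclei 8 were higher and 38 lower, beside 22.9% and 25.7%. All 9 latrophilin, teneurin and Flrt genes tested were lower in oligodendrocytes than in neurons.

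The genotype question was asked within each class. In astrocyte nuclei 0 of the 8 genes tested passed, where 0.0179% of 5600 genes did. There were 463 genes at an unadjusted edgeR p under 0.05, and DESeq2 called 19 genes. Lsamp was at 25630, 22306, 19985 and 27832 CPM in wt/wt 1 to 4 and at 24345, 19405 and 21868 CPM in mut/mut 1 to 3, ranges that overlapped. Its difference, mut/mut against wt/wt, was −0.15 with a 95% interval from −0.41 to 0.12. That of Ntm was −0.20 (interval −0.44 to 0.05) and that of Adgrb3 −0.04 (interval −0.28 to 0.20). Negr1 was at 1868 to 2173 CPM in wt/wt and at 1546 to 1835 CPM in mut/mut mice. The fitted difference of Negr1 was −0.31 (interval −0.57 to −0.05, adjusted p = 0.463), which did not pass over all genes. Opcml, with 15 UMIs, was below the filter.

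In oligodendrocyte nuclei 0 of 8 genes passed, where 0.0699% of 2860 genes did, 0.035% higher and 0.035% lower, with 274 genes at an unadjusted edgeR p under 0.05 and 13 genes called by DESeq2. Opcml was lower in mut/mut mice by −0.50 (interval −0.94 to −0.06, adjusted p = 0.418), and its ranges, given above, overlapped through wt/wt 1. The Ntm difference was 1.11 with an interval from −1.39 to 3.61. Without wt/wt 2, the wt/wt mouse with the highest Ntm level and the highest astrocyte marker sum of its group, the Ntm difference was 3.86 (adjusted p = 0.00580), 1 gene of the set passed and 151 of 2135 genes passed in all. Nrxn3, which 1 nucleus decides in wt/wt 1, differed by −1.35 with an interval from −5.20 to 2.51.

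In neuron nuclei 0 of 8 genes passed, where 0% of 1398 genes did, with 54 genes at an unadjusted edgeR p under 0.05 and 3 called by DESeq2. Ntm was at 659, 1351 and 668 CPM in wt/wt 2 to 4 and at 1848, 2464 and 1388 CPM in mut/mut 1 to 3. Its difference was 1.07 (interval −0.04 to 2.18, adjusted p = 0.972). Without the 1 nucleus that held most Ntm UMIs in each mouse, the levels were 364, 362 and 34.6 CPM in wt/wt 2 to 4 and 1648, 421 and 1139 CPM in mut/mut 1 to 3. Nrxn3 was at 26333, 9152 and 22365 CPM in wt/wt 2 to 4 and at 16199, 6675 and 16331 CPM in mut/mut 1 to 3, with a difference of −0.56 (interval −1.72 to 0.60). When the 5% of nuclei with the most UMIs were left out, wt/wt 3 had 9 neuron nuclei and left the fit, and with 2 wt/wt mice Opcml (3.25, adjusted p = 0.0131), Lsamp (1.23, adjusted p = 0.0403) and Nrxn3 (−0.87, adjusted p = 0.0401) passed, as did 95 of 1263 genes. No progenitor comparison of genotypes could be fitted at 10 nuclei per mouse, since neither mouse was wt/wt. With a minimum of 5 nuclei, in 2 wt/wt and 3 mut/mut mice, 0 of 8 genes passed, where 1 of 689 genes did and 60 were at an unadjusted edgeR p under 0.05.

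Over all nucleus-like barcodes together 0 of 9 genes passed, where 0% of 11104 genes did, with 185 genes at an unadjusted edgeR p under 0.05 and 2 called by DESeq2. Fewer astrocyte nuclei and less RNA per nucleus cannot be told apart in such sums, and mut/mut 4 had nearly no astrocytes. Whether the genotype effect differed between classes was tested in 5898 genes. For oligodendrocytes minus astrocytes 0 genes passed, with 224 at an unadjusted edgeR p under 0.05 and 0 by DESeq2, and for neurons minus astrocytes 0 passed, with 428 at an unadjusted edgeR p under 0.05 and 9 by DESeq2. The difference of Ntm, oligodendrocyte minus astrocyte, was 2.36 (SE 0.96, adjusted p = 1) and, without wt/wt 2, 4.25 (adjusted p = 0.00203). Of the 82 wider adhesion genes, 35 were tested in astrocytes, 20 in oligodendrocytes, 35 in neurons and 58 in all nucleus-like barcodes, and 0 passed in any of them.

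**Figure D3:**
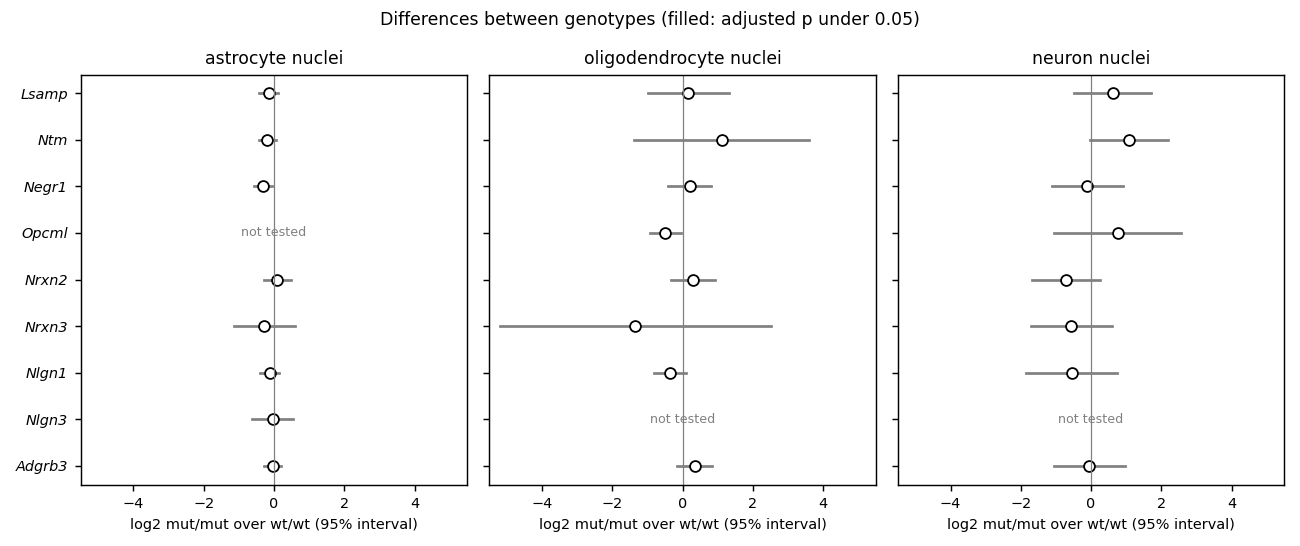
Log2 of mut/mut over wt/wt (horizontal axis, bars for the 95% interval) for each gene in astrocyte, oligodendrocyte and neuron nuclei, with open points where the adjusted p is 0.05 or more. No point is filled, and in astrocytes the intervals run from that of Adgrb3 (−0.28 to 0.20) to that of Nrxn3 (−1.13 to 0.58), while Nrxn3 in oligodendrocytes spans −5.20 to 2.51.

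Most barcodes over 300 genes were rich in mitochondrial UMIs, RNA that comes from outside the nucleus. With mitochondrial genes left out, all 9 genes differed between nucleus-like and mitochondria-rich barcodes of the same mouse, 7 of them higher in nucleus-like barcodes, where 79.1% of 11123 genes passed, 39.6% being higher and 39.5% lower. Adgrb3 was higher by 3.83 (SE 0.42), Lsamp by 3.53 (SE 0.43) and Nlgn1 by 3.07 (SE 0.42). Lsamp averaged 8395 CPM in nucleus-like and 394 CPM in mitochondria-rich barcodes. Nrxn3 (2.29), Negr1 (1.95), Opcml (1.84) and Ntm (1.69) were also higher. Adgrb3 and Lsamp were higher in 8 of 8 mice and the other 5 in 7 of 8. Nrxn2 was lower by −1.63 (SE 0.22) in 8 of 8 mice, with means of 111 and 213 CPM, and Nlgn3 by −1.06 (SE 0.20) in 6 of 8 mice. Both have shorter genes than the other 7, and the classes making up each kind of barcode differ, so class and RNA compartment cannot be told apart here.

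**Figure D4:**
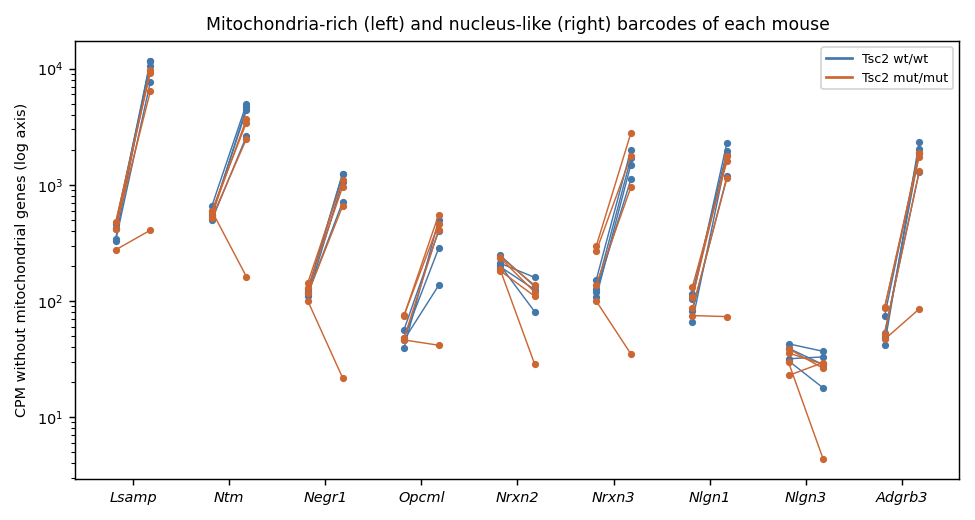
Level of each gene in CPM without mitochondrial genes (logarithmic vertical axis) in mitochondria-rich and nucleus-like barcodes, with 1 line per mouse. Lines rise in all 8 mice for Lsamp (means of 394 and 8395 CPM) and Adgrb3 and in 7 of 8 for 5 other genes, and fall in 8 of 8 for Nrxn2 (213 and 111 CPM) and in 6 of 8 for Nlgn3.

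The genes most like each member were sought over the means of the same 7 classes on the log2 scale among 7378 genes, as a description, since these classes share libraries and depth. Lsamp was most like Socs7 (Pearson r 0.99) and Gria2 (r 0.98). Ntm was most like 2610507B11Rik and Ocrl, each with r 0.99, and Opcml like Anks1b and Ephb2, each with r 0.99. Negr1 and Adgrb3 both had Sybu as the most alike gene, with r 0.99, and Nlgn1 and Adgrb3 had r 0.99 with each other.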

How the data were processed

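The deposited files hold counts, whole UMIs per gene and barcode, that the authors made from 10x Genomics 3′ libraries with Cell Ranger 7.0.1 on GRCm38, with 60000 barcodes forced per library and no normalization. Whether intronic reads were counted is not given in the sources used here. The submitters' processing notes also name Seurat 4. The sort gated out doublets, and no doublet caller was run.

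Nuclei had at least 300 genes and under 25% mitochondrial UMIs. A class needed 5 UMIs from 3 of its markers, a 4-fold excess and 2-fold more than the next class (158 markers, 10 classes). UMIs were summed per mouse and class with at least 10 nuclei. edgeR 4.0.16 in R 4.3.3 (TMM factors, filterByExpr, robust quasi-likelihood fits) compared classes with mouse as a block, genotypes without a block, and their interaction. P-values were adjusted by Benjamini-Hochberg over all genes and called at 0.05. SE is the log2 fold change over the root of F. The median of 1810 to 4125.5 UMIs per nucleus-like barcode, and the number of nuclei and mice, limit precision. Intervals on log2 fold changes are 95% intervals of the fit. The fits were tested on simulated data. Mice are separate samples in the labels.

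The genes named were the 9 members, the 3 genes with the largest called change per list of wider adhesion genes, and the 3 most alike genes. The members and lists were chosen with earlier results of these data known. Alternatives were DESeq2 1.42.0, other factors, filters and thresholds, Leiden clusters, a replicate block and leaving out each mouse. A minimum of 5 or 20 nuclei and leaving out mitochondrial genes were added after seeing the data.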

Additional observations from a re-analysis of the deposited data

Results flagged for a closer look

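In oligodendrocyte nuclei, Ntm stood at 551 CPM in wt/wt 2 and at 0 to 45.2 CPM in the other 3 wt/wt mice, a gap larger than Dixon's limit for 4 samples. In the same nuclei Nrxn3 stood at 1843 CPM in wt/wt 1 and at 8.21 to 131 CPM in the others, and all of its UMIs there came from 1 nucleus. Over all nucleus-like barcodes, Nlgn3 stood at 4.03 CPM in mut/mut 4 and at 23.7 to 26.8 CPM in the other mut/mut mice, and mut/mut 4 was the library with 78.6% of its nucleus-like barcodes in the choroid plexus class. These 3 came from 45 groups examined, and chance alone sets apart about 1 group in 20.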

How the results depend on the processing

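Of the 9 genes, the number that passed stayed within 1.5 times its value for astrocytes against oligodendrocytes (6 to 9 over 22 alternatives), oligodendrocytes against neurons (6 to 8) and nucleus-like against mitochondria-rich barcodes (9 in all 15). Astrocytes against progenitors had 3, with 6 by Leiden clusters, 7 at 5 nuclei per mouse and 1 to 4 when leaving out 1 mouse. Astrocytes against neurons had 4, with 7 at a minimum of 20 nuclei. Oligodendrocytes against progenitors had 9, with 5 to 9 when leaving out 1 mouse. Progenitors against neurons had 4, with 1 at a mitochondrial limit of 15%, 1 at a minimum of 20 nuclei and 0 to 4 when leaving out 1 mouse. The cause of these changes was not tested, and these settings also change which samples or nuclei enter the fit. By genotype, 0 passed in oligodendrocytes, with 0 to 1 when leaving out 1 mouse, and 0 in neurons, with 3 when the 5% of nuclei with most UMIs were left out. The differences between classes had 0, with 0 to 1 for oligodendrocytes when leaving out 1 mouse and 1 for neurons (Lsamp, 1.56, adjusted p = 0.0169) without those 5%. No value of a single gene turned its direction while called.

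Calls over all genes by genotype ranged from 0 to 151 in astrocytes (1 by edgeR as designed, 73 with no filter on low counts, 151 without wt/wt 2), from 0 to 151 in oligodendrocytes (2 as designed, 13 by DESeq2, 151 without wt/wt 2) and from 0 to 95 in neurons (0 as designed). Between classes they were 1950 to 4501 for astrocytes against oligodendrocytes (3176 as designed), 351 to 1464 for astrocytes against progenitors (1043), 1611 to 3874 for astrocytes against neurons (2687), 573 to 1626 for oligodendrocytes against progenitors (1253), 1837 to 3775 for oligodendrocytes against neurons (2883) and 162 to 1037 for progenitors against neurons (577). The interaction had 0 as designed and up to 21 for oligodendrocytes and 77 for neurons. The replicate block changed no call of a member, with 0 passing in astrocytes, oligodendrocytes, neurons and all nucleus-like barcodes. The deviations of same-numbered mice had r from −0.04 to −0.03 in astrocytes and from −0.64 to 0.37 over all nucleus-like barcodes. With so few mice, these values cannot show whether the replicate numbers mark pairs. Low counts limit Opcml in astrocytes and Nlgn3, and progenitors rest on 2 mice.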
